A study of Mus musculus with 2 samples.

Results

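The cytosolic ribosomal protein genes were followed here in cultured adipose-derived stromal cells, the fibroblast-like progenitors that grow out of fat tissue, together with the pseudogenes that descend from them. Members were array rows with a single gene symbol of the form Rpl or Rps plus a digit, or Rplp0, Rplp1, Rplp2 or Rpsa, without the Rps6k kinases. This gave 243 of 65956 rows and 236 of 30142 named genes. Of these 236, 33 were parent genes of the canonical ribosome, 191 were pseudogenes with -ps in the symbol, 11 were paralogues or retrogenes and 1, Rps19bp1, encodes a binding protein of a ribosomal protein. Where a gene had several rows, the row with the highest average was taken.

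One array came from Wisp1 knockout mice and one from wild-type mice. Both were C57BL/6J, 6 to 10 weeks old, with cells from the inguinal fat pad grown in DMEM with 15% FBS. The knockout is global, made with a floxed allele over exons 1 to 5 of Wisp1 on chromosome 15 and a Cre line labelled only Cre-neo. Whether a cassette stayed in the genome, how many animals gave cells and the passage are not given in the sources used here, and the labels name no further treatment. Wisp1, now Ccn4, encodes a secreted matricellular protein induced by Wnt signalling. The study's title places it as an inhibitor of cartilage differentiation when bone forms outside the skeleton.

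The values are RMA log2 expression, so 1 unit is a 2-fold difference, and each difference is knockout minus wild type. With 1 array per genotype there is no replicate spread, no test and no p-value, and each difference compares these 2 arrays rather than the genotypes. The number of arrays limits the precision. Wisp1 read 5.40 in the knockout array and 7.79 in the wild-type array, which is lower in the array labelled knockout. Whether its probes lie in the deleted exons was not analysed here. Of 9 measured stromal markers 8 were at or above the median level of named genes. Col1a1, Col1a2, Pdgfrb, Thy1, Eng and Dcn were at 8.84 or above in the knockout array and 8.53 or above in the wild-type array, while Nt5e was dim at 3.28 in the knockout array and 3.27 in the wild-type array. The 5 macrophage markers ranged from 2.86 to 7.43 in the knockout array and from 2.86 to 6.14 in the wild-type array. Among them, 3 were higher, where 47% of all named genes were, but Csf1r by only 0.01. The others were Lyz2, at 7.43 in the knockout array and 6.14 in the wild-type array, and Cd68. Cd68 was at 6.35 in the knockout array and 5.77 in the wild-type array. The defining receptors Csf1r, Ptprc and Adgre1 lay between 2.86 and 4.62 in the knockout array and between 2.86 and 4.61 in the wild-type array. Stromal markers also differed, with 8 of the 9 higher. Lum was at 5.39 in the knockout array and 4.79 in the wild-type array. Col1a1 was at 11.90 in the knockout array and 11.40 in the wild-type array. Eng was lower, at 9.17 in the knockout array and 9.38 in the wild-type array. Endothelial, adipocyte and muscle markers were at 5.31 or below in the knockout array and 5.00 or below in the wild-type array. Among them Cdh5 differed by 0.80, Adipoq by -0.64, Des by 0.41 and Myh3 by 0.32. The part of other cell types in the ribosomal protein values was not tested. In such bulk RNA, more cells of a type and more RNA per cell cannot be told apart.

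Each ribosome joins a large and a small subunit, built from ribosomal RNA and one copy of most ribosomal proteins. The small subunit decodes the mRNA and the large subunit forms peptide bonds and releases the chain through an exit tunnel. The mRNAs for these proteins are among the most abundant of a growing cell and carry a terminal oligopyrimidine (TOP) tract at their start, through which the TOR kinase controls their translation. They have left many processed pseudogenes, intronless copies of the mRNA inserted elsewhere in the genome, whose sequence is close to that of the parent.

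Most ribosomal protein genes read slightly more in knockout cells. Of the 33 parent genes 30 were above wild type and 3 below it, with a median difference of 0.12 and a range from -0.10 to 0.27. Among the 15072 named genes whose level was at least the median of 4.65, members included, 56.9% were higher, 39.9% lower and the median difference was 0.03. A difference of at least 0.1 was reached by 19 parents (57.6%) upwards, where 29.3% of those named genes did so, and by none downwards, where 17.7% did. No parent came near a 2-fold difference, which 0.166% of named genes reached. All 33 passed the level filter, at 6.01 to 12.25 in the knockout array and 5.89 to 12.13 in the wild-type array, and their median level was above 96.0% of named genes.

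The size of this difference depended in part on how the arrays were scaled. Of the 14 parents at log2 10 or brighter, 12 were higher and 2 lower, with 9 higher and none lower by at least 0.1. Of the 956 named genes in that range 57.9% were higher and 41.9% lower, with 37.3% higher and 25.2% lower by at least 0.1. Quantile normalization left 27 parents higher with a median of 0.09, of which 16 were higher by at least 0.1, and 2 parents were lower by that much. Of the 15072 named genes, 48.4% were then higher, 22.05% higher by at least 0.1 and 23.8% lower by that much. Loess centring on expression level left 26 parents higher with a median of 0.08, with 12 higher and 2 lower by at least 0.1. There 50.2% of the named genes were higher, 23.0% higher by at least 0.1 and 22.7% lower by that much. Because RMA equalizes arrays, a change common to nearly all mRNAs would leave no trace in these values.

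**Figure D1:**
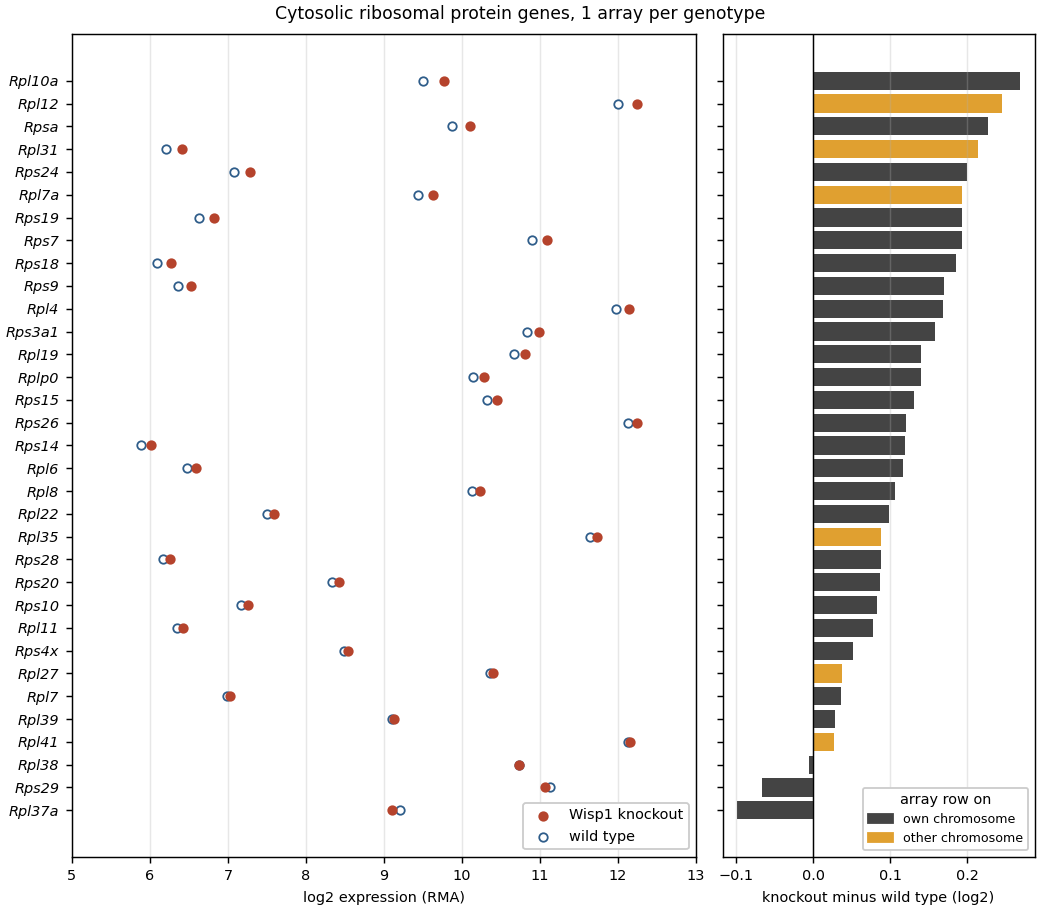
Left, log2 expression of the 33 parent genes in the Wisp1 knockout array (filled) and the wild-type array (open), 1 array each. Right, the knockout minus wild-type difference as bars from 0, coloured by whether the array row lies on the gene's own chromosome. The knockout point lies to the right for 30 genes, by at most 0.27, and to the left for Rpl38, Rps29 and Rpl37a.

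The genes with the highest differences came from both subunits. Rpl10a, a protein of the mobile stalk beside the exit site for tRNA, read 9.76 in the knockout array and 9.49 in the wild-type array, a difference of 0.27. Rpsa, a small subunit protein also known as a laminin receptor, read 10.10 in the knockout array and 9.87 in the wild-type array (0.23). Rps24, needed for processing of the small subunit's RNA, read 7.28 in knockout and 7.08 in wild-type cells (0.20). Rpl12, at the base of the P stalk that recruits elongation factors, read 12.241 in knockout and 11.996 in wild-type cells (0.25). Rpl31, at the rim of the exit tunnel, read 6.41 in knockout and 6.20 in wild-type cells (0.21), and Rpl7a, a core protein of the large subunit, 9.62 in knockout and 9.43 in wild-type cells (0.19). In fold terms the highest of these was 1.20-fold.

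At the other end stood, apart from Rpl7, genes of small proteins. Rpl37a, a zinc-binding protein of the large subunit, read 9.10 in the knockout array and 9.20 in the wild-type array (-0.10). Rps29, a zinc-binding protein of the small subunit's head, read 11.06 in the knockout array and 11.13 in the wild-type array (-0.07). Rpl38, known in mice for its part in translation of Hox mRNAs, read 10.73 on both arrays (-0.0050). Rpl41, the smallest ribosomal protein, read 12.16 in knockout and 12.13 in wild-type cells (0.03), Rpl39, in the wall of the exit tunnel, 9.13 in knockout and 9.10 in wild-type cells (0.03), and Rpl7 7.02 in knockout and 6.99 in wild-type cells (0.04). The signs of the last 3 turned negative under quantile normalization and under loess centring. There Rps29 differed by -0.12 and -0.11 and Rpl37a by -0.13 and -0.14, in the order of those scalings.

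Most genes were higher at bright and at dim levels, but the share higher by at least 0.1 varied with level. Rps26, beside the mRNA exit channel, was brightest at 12.25 in the knockout array and 12.13 in the wild-type array (0.12), close to Rpl12 and Rpl41 in level. The dimmest were Rps14, required for assembly of the small subunit, at 6.01 in knockout and 5.89 in wild-type cells (0.12), Rps18 at 6.27 in knockout and 6.08 in wild-type cells (0.19) and Rps28 at 6.26 in knockout and 6.17 in wild-type cells (0.09). All 8 parents below a level of 7 were higher, where 54.6% of named genes from the median level to 7 were. Of the 6 at 11 or above 5 were, where 64.9% of named genes were. By at least 0.1, 6 of 8 were higher below 7 (75%, against 26.8% of named genes there). From 7 to 9, 1 of 6 was (16.7% against 32.0%), and from 9 to 11, 9 of 13 (69.2% against 32.7%). At 11 or above, 3 of 6 were (50% against 45.2%). The shares at 7 to 9 and at 11 or above were thus below or near those of named genes. Across the 33 genes, which share both arrays, difference and level had Pearson r = -0.07. Levels of different probes also depend on the probes, so they do not rank the genes' mRNAs.

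The difference was seen in genes of both subunits, to be read against the 56.9% of named genes that were higher and the 29.3% higher by at least 0.1. Of 18 large subunit genes 16 were higher, with a median of 0.10, and of 15 small subunit genes 14 were, with a median of 0.13. Within the small subunit, all 8 measured genes of the body were higher, 7 by at least 0.1 (median 0.16). Of the head 6 of 7 were, 3 by at least 0.1 (median 0.09), the exception being Rps29. Rps4x, an X-linked member of the body, differed least there, at 8.53 in the knockout array and 8.48 in the wild-type array (0.05). All 5 genes of the exit tunnel were higher, 3 by at least 0.1 (median 0.14). Rpl31 led them in the row used, but a row on its own chromosome differed by 0.07, below Rpl4 at 0.17. Of the P stalk, Rplp0, its anchor, read 10.28 in knockout and 10.14 in wild-type cells (0.14). Rpl11, which with Rpl5 can bind and block the p53 regulator MDM2, read 6.43 in the knockout array and 6.35 in the wild-type array (0.08). Fau, a ubiquitin-like fusion gene of a small subunit protein that lies outside the symbol rule, read 10.99 in knockout and 10.91 in wild-type cells (0.08). Of 11 measured genes mutated in Diamond-Blackfan anaemia, a human failure of red cell production, 10 were higher and 5 by at least 0.1 (median 0.09), among them Rps19, its most often mutated gene, at 6.82 in knockout and 6.62 in wild-type cells (0.19).

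Promoter sequences are shown because the parents differed together and because these genes share known elements. RefSeq start windows, 250 bases before and 50 after the start on GRCm38.p6, were found for 28 of the 33 parents. The core of the site for ETS factors such as GABP (CCGGAAG, either strand) was present in 14 of them (50.0%), against 12.9% of 17491 protein-coding genes. The following windows run from 110 bases before to 20 after the start, 5′ to 3′ on the gene's strand, with the ETS core in capitals. They come from the 3 highest and 3 lowest parents that held it there and whose array row lies on the gene's own chromosome.
Rps7, chr12:28635934-28636063, minus strand: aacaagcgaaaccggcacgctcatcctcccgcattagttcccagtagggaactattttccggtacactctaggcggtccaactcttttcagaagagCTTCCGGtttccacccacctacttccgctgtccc
Rps18, chr17:33955646-33955775, minus strand: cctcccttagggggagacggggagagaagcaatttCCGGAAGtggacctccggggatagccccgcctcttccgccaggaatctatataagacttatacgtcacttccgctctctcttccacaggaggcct
Rps3a1, chr3:86142649-86142778, minus strand: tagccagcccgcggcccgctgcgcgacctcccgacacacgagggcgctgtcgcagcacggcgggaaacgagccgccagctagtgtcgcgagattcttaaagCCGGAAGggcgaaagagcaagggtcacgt
Rps10, chr17:27635225-27635354, minus strand: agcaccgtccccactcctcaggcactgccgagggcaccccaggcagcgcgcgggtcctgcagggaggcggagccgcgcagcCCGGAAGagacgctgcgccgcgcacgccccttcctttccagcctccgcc
Rpl11, chr4:136053374-136053503, minus strand: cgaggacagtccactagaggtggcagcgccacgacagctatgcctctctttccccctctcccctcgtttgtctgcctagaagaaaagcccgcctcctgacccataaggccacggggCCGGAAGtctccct
Rpl38, chr11:114668470-114668599, plus strand: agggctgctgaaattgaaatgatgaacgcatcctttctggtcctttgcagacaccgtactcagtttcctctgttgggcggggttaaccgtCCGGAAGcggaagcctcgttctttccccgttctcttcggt

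The ETS core was found at both ends of the range. The 14 parents with it had a median difference of 0.12 and the 14 without it 0.15, and it stood in Rps7 (0.19) as in Rpl38 (-0.0050). A 10-letter palindrome, TCGCGA with TC before and GA after it, was in 4 of 28 parents (14.3%) against 0.755% of protein-coding genes. Parents with it had a median difference of 0.22 and the 24 without it 0.13. The GC box GGGCGG, at 53.6% against 49.2%, the TATA box TATAAA, at 14.3% against 14.8%, and AAGATGGC, a core of the YY1 site, at 3.57% in each, were held by like shares of parents and of protein-coding genes. Each motif was searched on both strands. These are matches of letters in 1 window and not sites shown to be bound.

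The TOP tract was looked for as a C followed by at least 5 bases that are C or T, from 10 bases before to 20 after the RefSeq start. Such a run was present in 16 of 28 parents (57.1%) and in 25.2% of protein-coding genes. A run found this way need not be a TOP tract, because the search did not require it to begin at the start. The following windows carry the run in capitals. They show it at both ends of the range of differences among parents with a row on their own chromosome, from Rpl10a (0.27), Rps24 (0.20) and Rps18 (0.19) to Rpl11 (0.08), Rpl39 (0.03) and Rpl38 (-0.0050).
Rpl10a, chr17:28328461-28328490, plus strand: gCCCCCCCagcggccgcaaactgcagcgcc
Rps24, chr14:24490668-24490697, plus strand: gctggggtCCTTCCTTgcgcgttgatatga
Rps18, chr17:33955646-33955675, minus strand: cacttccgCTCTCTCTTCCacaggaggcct
Rpl11, chr4:136053374-136053403, minus strand: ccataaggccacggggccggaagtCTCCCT
Rpl39, chrX:37085203-37085232, minus strand: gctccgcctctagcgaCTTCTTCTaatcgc
Rpl38, chr11:114668570-114668599, plus strand: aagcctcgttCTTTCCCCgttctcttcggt

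In Rps24, Rps18 and Rpl38 the run spans or begins at the annotated start, whereas in Rpl11 and Rpl39 it lies further inside and in Rpl10a before it. Parents with a run had a median difference of 0.15 and those without one 0.11.

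The row chosen for a parent was not always at the parent's own locus. Row identifiers carry a chromosome code that matched the RefSeq chromosome for 29689 of 29746 named genes, and only 0.172% of genes other than the parents disagreed. Among the 33 parents 6 did (18.2%), namely Rpl12, Rpl31, Rpl27, Rpl35, Rpl41 and Rpl7a. The row of Rpl41 lies on chromosome 14 and the gene on chromosome 10. Another Rpl41 row on chromosome 10 read 7.02 in the knockout array and 6.99 in the wild-type array, far dimmer than the row used, with the same difference of 0.03. For Rpl27 the row on chromosome 11, where the gene lies, read 6.21 in knockout and 6.13 in wild-type cells (0.09), and the brighter one elsewhere 10.40 in knockout and 10.36 in wild-type cells (0.04). The Rpl7a row on the gene's chromosome 2 differed by 0.11 in place of 0.19, and that of Rpl35, also on chromosome 2, by 0.07 in place of 0.09. For Rpl31 a row on its own chromosome 1, which lists a pseudogene symbol beside the parent, read 9.54 in knockout and 9.47 in wild-type cells (0.07 in place of 0.21). With rows on the RefSeq chromosome alone, 28 of 31 parents were higher, with a median of 0.11. Which locus the signal of a brighter row comes from cannot be told apart here.

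Most canonical genes are missing from the 33 for a reason of annotation. Of 77 canonical genes that fit the symbol rule, 37 were listed only in rows with several symbols, 5 of them with a small nucleolar RNA and others with a predicted gene or a pseudogene, and 7 were not analysed here. With those rows kept, 59 of 70 parents (84.3%) were higher, with a median of 0.09. By at least 0.1, 33 (47.1%) were higher and 1 (1.43%) lower. Of the named genes that reach the median level, 56.9% were higher, 29.3% higher by at least 0.1 and 17.7% lower by that much. The 37 added genes had a median of 0.07, with 29 (78.4%) higher and 15 (40.5%) higher by at least 0.1. Their ends, named after the values were seen, were Rpl15 at 7.74 in the knockout array and 7.46 in the wild-type array (0.28), and Rpl36a at 9.34 in the knockout array and 9.44 in the wild-type array (-0.10). Rpl5, the partner of Rpl11, read 8.49 in knockout and 8.31 in wild-type cells (0.18). The acidic P stalk proteins Rplp1 (12.29 in knockout and 12.33 in wild-type cells, -0.04) and Rplp2 (7.48 in knockout and 7.45 in wild-type cells, 0.03) differed less than Rplp0.

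Most pseudogenes were higher too. Of 191 pseudogenes, dim ones included, 154 were higher, 35 lower and 2 the same, with a median of 0.11, and 103 (53.9%) were higher by at least 0.1 and 12 (6.28%) lower by that much. Among all 30142 named genes, 47% were higher and 47.4% lower, 23.1% were higher and 23.2% lower by at least 0.1, and 0.0896% differed by 2-fold, which no pseudogene did. Their levels spanned 2.67 to 12.80 in the knockout array and 2.70 to 12.68 in the wild-type array. At or above the median level lay 173 of 191, but only 15072 of the 30142 named genes, so the 2 sets differ in level. Of those 173 pseudogenes 148 were higher, with a median of 0.12, where 56.9% of those 15072 named genes were, with a median of 0.03. Of the 18 dim ones 6 were higher and 10 lower, where 37.0% of named genes below the median level were higher. Of the 59 pseudogenes at a level of 11 or above, 51 were higher (86.4%), against 64.9% of the 436 named genes in that range.

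Single pseudogenes went beyond the parents in both directions. Rps2-ps9 read 7.85 in the knockout array and 7.40 in the wild-type array (0.46), and Rpl7a-ps12 read 5.44 in the knockout array and 5.02 in the wild-type array (0.42). A brighter pair followed, Rpl7a-ps3 at 10.15 in knockout and 9.81 in wild-type cells (0.34) and Rpl29-ps5 at 11.11 in knockout and 10.78 in wild-type cells (0.34). The lowest were mostly dim, with Rps15a-ps8 at 2.67 in knockout and 2.94 in wild-type cells (-0.27), Rpl48-ps1 at 2.84 in knockout and 3.10 in wild-type cells (-0.26), Rps16-ps3 at 3.97 in knockout and 4.13 in wild-type cells (-0.16) and Rpl36-ps1 at 5.39 in knockout and 5.54 in wild-type cells (-0.15). The brightest, Rps23-ps (12.80 in knockout and 12.68 in wild-type cells) and Rpl28-ps3 (12.80 in knockout and 12.67 in wild-type cells), were above every parent and differed by 0.12 and 0.13.

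Pseudogenes of one parent resembled each other in their differences. In 34 families with 2 or more pseudogenes, the SD of the difference within a family was 0.084 and the SD of the family means 0.10. Among the 101 pseudogenes at a level of 9 or above in 25 families these were 0.051 and 0.11. Both sets include 8 rows that repeat the values of another row of their family, and other copies may share probes. A part of the small spread within families can therefore be built in. In 21 of the 34 families every pseudogene was higher, and in none was every one lower or unchanged. All 13 Rps19 copies were higher (median 0.21), as were all 13 of Rpl21 (0.19), all 8 of Rpl30 (0.21) and all 8 of Rpl7a (0.30). In contrast the 15 Rps12 copies split into 7 higher and 8 lower (-0.0012), 4 of 7 Rpl36 copies were higher (0.00056) and 1 of 6 Rpl35a copies (-0.10). The large Rpl31 family lay between, with 20 of 22 higher and a median of 0.10. These counts stand beside 47% of all named genes higher, and 56.9% of those that reach the median level.

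**Figure D2:**
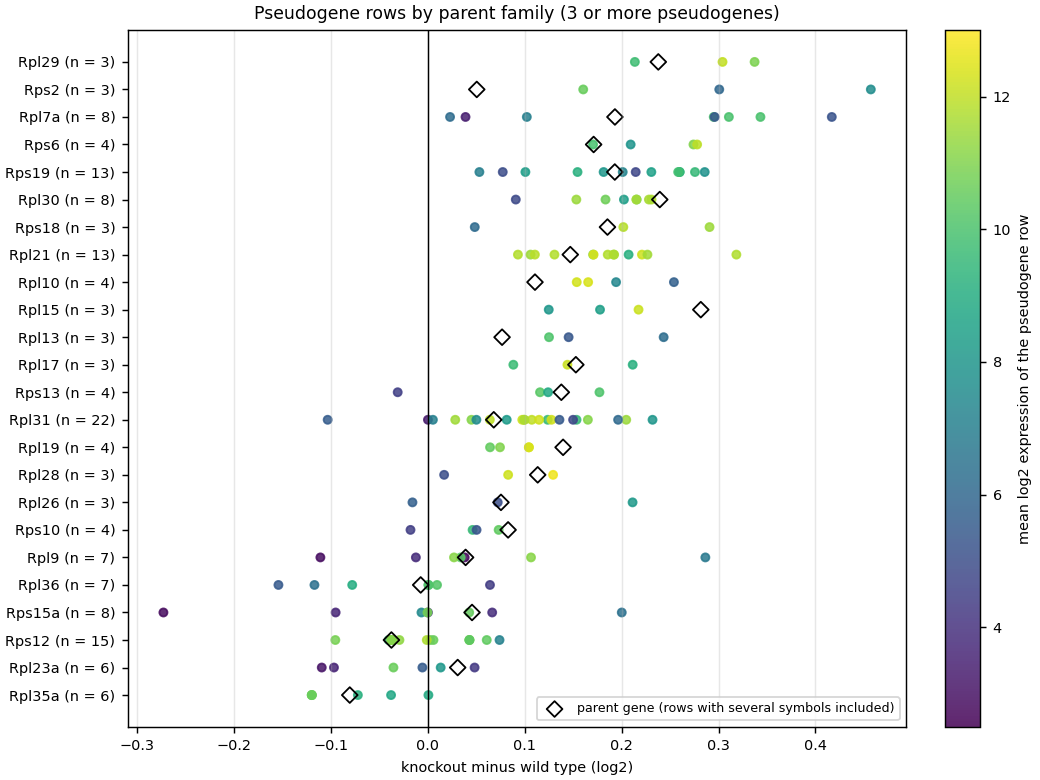
Knockout minus wild-type difference (log2) of each pseudogene row, by parent family, for families of 3 or more, coloured by mean log2 expression. Open diamonds mark the parent gene, with rows of several symbols included. Families run from Rpl35a, with a median of -0.10, to Rpl29, with 0.30, and most diamonds move in the same direction along the axis, with that of Rps2 far below its copies.

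The family values followed those of the parents. Over 15 families whose parent has a row with its symbol alone, the pseudogene median and the parent difference had r = 0.73 and rho = 0.69. Some of those parent rows lie on another chromosome than the gene. Over the 10 families with the row on the parent's own chromosome, r was 0.82 and rho 0.79. With rows of several symbols kept, r was 0.74 and rho 0.77 over 44 families. Several of those rows, as for Rps12, Rpl14 and Rps6, list pseudogenes of the family beside the parent. Parent and copies were thus not measured apart there, and a part of the likeness can be built in. With rows of several symbols kept, Rps12 (-0.04), Rpl35a (-0.08) and Rpl36 (-0.0075) were below 0, near their pseudogenes. Rpl30 (0.24), Rpl29 (0.24) and Rpl21 (0.15) were above it. An exception was Rps2, at 0.05 where its 3 pseudogenes had a median of 0.30. The points share both arrays, and parents and copies are near identical in sequence, so transcription of a pseudogene and signal from the parent's mRNA cannot be told apart. Some rows repeat a measurement outright. The same values on both arrays were listed for Rpl35a-ps3, Rpl35a-ps4 and Rpl35a-ps6 (10.56 in the knockout array and 10.68 in the wild-type array). This was also so for Rps12-ps6, Rps12-ps17 and Rps12-ps18 (11.02 in knockout and 11.06 in wild-type cells). Rps19-ps1 and Rps19-ps2 shared theirs too (9.63 in knockout and 9.37 in wild-type cells). That leaves 186 distinct value pairs, of which 153 were higher. Other rows had equal differences at slightly different levels, as Rpl31-ps8 and Rpl31-ps13 did at 0.0995. The 186 pairs are therefore not all separate measurements.

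The longest pseudogenes had the highest median difference. A RefSeq length was found for 190 of the 191. Among named genes 47% were higher over all levels, 56.2% from a level of 9 to 11 and 64.9% at 11 or above. The 64 shortest, up to 474 bases, had a median of 0.05 with 47 higher, the 63 of 475 to 576 bases a median of 0.10 with 47 higher, and the 63 longest a median of 0.18 with 59 higher. At a level of 9 or above, all 38 of the longest were higher (median 0.17), as were 29 of 38 in the middle range (0.11) and 30 of the 38 shortest (0.04), so there the medians were in the order of length and the counts were not. Over the 190 pseudogenes Spearman's rho was 0.42 and Pearson's r 0.06, the latter with 2 records of 6749 and 41903 bases in it. Over 47 families rho was 0.49 and r 0.35. Copies of one parent are not independent of each other, and the part of labelling or RNA quality was not tested.

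**Figure D3:**
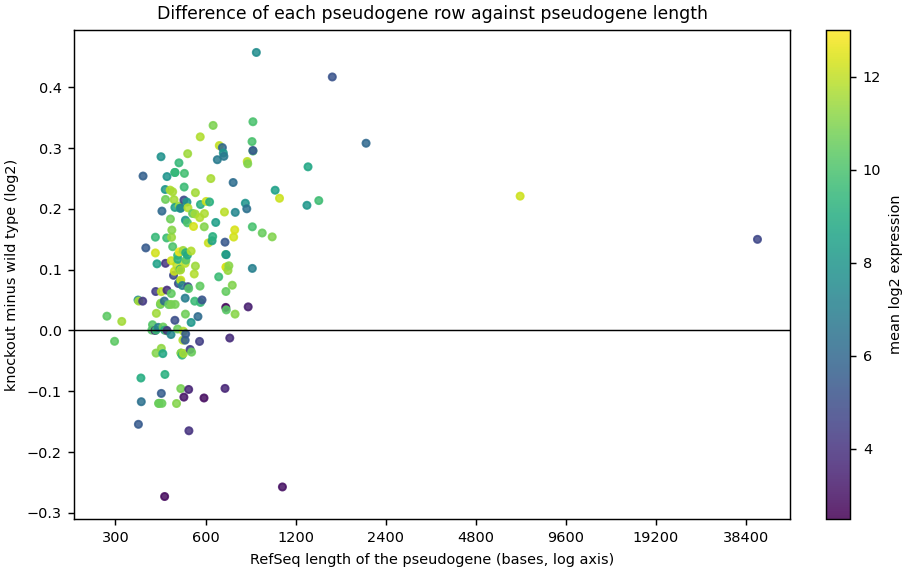
Knockout minus wild-type difference (log2) of 190 pseudogene rows against the RefSeq length of the pseudogene in bases on a log axis, coloured by mean log2 expression. Of the 63 longest 59 lie above 0, with a median of 0.18, and points below 0 occur at bright and dim levels.

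Paralogues and retrogenes, expressed copies with their own open reading frame in part, leaned the same way. Of 11, 9 were higher, 2 were lower and the median was 0.15, where 56.9% of named genes that reach the median level were higher. Of Rpl22l1, Rpl39l, Rpl7l1, Rpl3l, Rpl10l and Rps27l, the 6 measured of a list of paralogues, 4 were higher, with a median of 0.04. Rpl22l1, the paralogue that can replace Rpl22 and is held down by it in mice, had the highest difference, at 6.44 in the knockout array and 6.11 in the wild-type array (0.33), while Rpl22 read 7.59 in knockout and 7.50 in wild-type cells (0.10). Rps23rg1, a retroposed copy of Rps23, read 6.70 in knockout and 6.38 in wild-type cells (0.31). The Rps3a copies Rps3a3 (11.16 in knockout and 10.89 in wild-type cells, 0.27) and Rps3a2 (11.35 in knockout and 11.11 in wild-type cells, 0.24) differed more than Rps3a1 itself, at 10.99 in knockout and 10.83 in wild-type cells (0.16).

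The remaining paralogues differed less. Rpl39l, best known from testis, read 6.93 in the knockout array and 6.75 in the wild-type array (0.18), and Rpl6l 8.84 in knockout and 8.69 in wild-type cells (0.15). Rpl32l (11.37 in knockout and 11.31 in wild-type cells, 0.06) and Rpl7l1 (7.82 in knockout and 7.78 in wild-type cells, 0.04) were closer to 0. The muscle paralogue Rpl3l was dim at 3.92 in knockout and 3.89 in wild-type cells (0.03), and the testis paralogue Rpl10l was at 4.96 on both arrays (-0.0046). Rps27l, a p53 target, was lowest at 8.72 in knockout and 8.80 in wild-type cells (-0.09). Rps19bp1 read 7.99 in the knockout array and 8.04 in the wild-type array (-0.05).

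Other mRNAs with a TOP tract were mostly higher. Their list holds Fau (0.08), the small subunit fusion gene outside the symbol rule, so it is not wholly apart from the ribosomal proteins. Of 19 measured, 18 were higher and 10 by at least 0.1, with a median of 0.11, and none was lower by that much, against 56.9% of named genes that reach the median level higher, 29.3% higher by at least 0.1 and 17.7% lower by that much. Eif3h and Eif4b, translation initiation factors, were highest, at 10.31 in knockout and 10.05 in wild-type cells (0.26) and 9.34 in knockout and 9.10 in wild-type cells (0.24). Eef1d, an exchange factor of elongation, was at 7.43 in knockout and 7.42 in wild-type cells (0.02), and the intermediate filament gene Vim was lowest at 11.93 in knockout and 12.01 in wild-type cells (-0.08). The wider list of initiation, elongation and termination factors, which shares members with that list, had 29 of 36 (80.6%) higher and a median of 0.05. Of these 36, 12 (33.3%) were higher by at least 0.1, near the 29.3% of those named genes. None was lower by that much, where 17.7% of those named genes were. Its lowest members were the Eif3 core genes Eif3b (8.84 in knockout and 8.94 in wild-type cells, -0.10) and Eif3a (9.59 in knockout and 9.65 in wild-type cells, -0.06).

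Genes that build ribosomes were about evenly divided. Of 51 ribosome assembly genes 24 (47.1%) were higher, 25 lower and 2 the same, with a median of 0. By at least 0.1, 9 (17.6%) were higher and 5 (9.80%) lower. Of the named genes that reach the median level, 56.9% were higher, 29.3% higher by at least 0.1 and 17.7% lower by that much. Imp3, a factor of small subunit processing, was highest at 7.41 in the knockout array and 7.21 in the wild-type array (0.20), followed by the RNA polymerase subunit gene Polr1d at 7.61 in knockout and 7.43 in wild-type cells (0.18). Nop10, a protein of pseudouridylation particles, was lowest at 5.77 in knockout and 6.05 in wild-type cells (-0.28), followed by Sbds, which helps release an assembly factor from the large subunit, at 8.08 in knockout and 8.24 in wild-type cells (-0.15). Mitochondrial ribosomal proteins, counted with 4 pseudogenes, had 49 of 79 (62.0%) higher and a median of 0.04. Without the pseudogenes these were 47 of 75 and 0.04. Of the 79, 25 (31.6%) were higher by at least 0.1, near the 29.3% of those named genes. Lower by that much were 5 (6.33%), where 17.7% of those named genes were. Mrpl47 (5.94 in knockout and 5.65 in wild-type cells) and Mrpl35 (6.74 in knockout and 6.45 in wild-type cells) were highest, both at 0.29, and Mrps18c (5.59 in knockout and 5.82 in wild-type cells, -0.22) and Mrpl44 (4.95 in knockout and 5.13 in wild-type cells, -0.18) lowest.

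**Figure D4:**
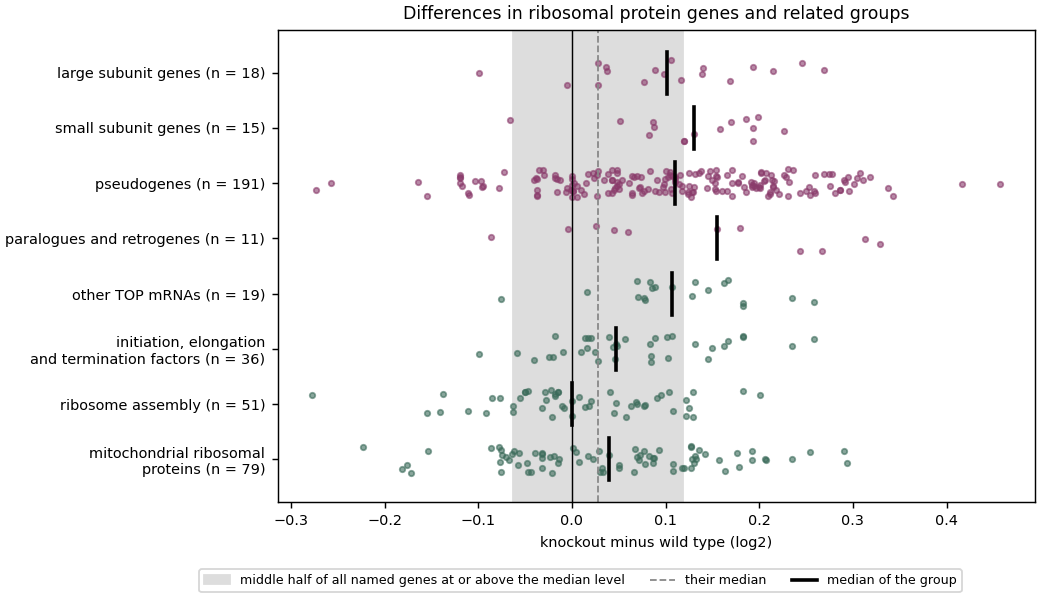
Knockout minus wild-type difference (log2) of each gene, by group, with a black line at the group's median. The grey band is the interquartile range of the 15072 named genes that reach the median level, and the dashed line their median of 0.03. Medians of ribosomal protein genes, pseudogenes and other TOP mRNAs lie between 0.10 and 0.13, that of paralogues at 0.15, and that of assembly genes at 0.

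Regulators of ribosomal protein synthesis came last. Of 15 genes of the TOR pathway and the MYC network 10 (66.7%) were higher, with a median of 0.07, and 7 (46.7%) were higher and none lower by at least 0.1. The shares of named genes that reach the median level were 56.9%, 29.3% and 17.7%. Deptor, an inhibitor of TOR, was highest at 6.25 in the knockout array and 5.87 in the wild-type array (0.37), and Myc, which drives ribosome production, followed at 8.17 in knockout and 7.80 in wild-type cells (0.36). Tsc1, a TOR inhibitor, and Mxd4, a MYC antagonist, were lowest, at 5.71 in knockout and 5.78 in wild-type cells (-0.07) and 8.69 in knockout and 8.76 in wild-type cells (-0.06). Of 6 Rps6k kinase genes 3 were higher, with Rps6kb2 (6.76 in knockout and 6.62 in wild-type cells, 0.14) and Rps6ka3 (7.01 in knockout and 6.88 in wild-type cells, 0.13) at the top and Rps6kl1 (4.90 in knockout and 5.04 in wild-type cells, -0.15) and Rps6ka6 (3.30 in knockout and 3.36 in wild-type cells, -0.06) at the bottom. All 4 measured host transcripts of small nucleolar RNAs were higher, most of all Snhg5 at 7.33 in the knockout array and 6.84 in the wild-type array (0.49), then Snhg17 at 5.80 in knockout and 5.65 in wild-type cells (0.15), with Snhg6 (5.21 in knockout and 5.10 in wild-type cells, 0.11) and Snhg15 (6.37 in knockout and 6.31 in wild-type cells, 0.06) below.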

How the data were processed

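The values are log2 signals of transcript clusters, which the authors deposited after RMA in Partek, per the submitters' processing notes. Versions, the genome build of the array and the arrays normalized together are not given in the sources used here. That they are on a log2 scale was judged from their range, 1.74 to 13.65 in the knockout array and 1.88 to 13.62 in the wild-type array. Exactly 1 distinct symbol was listed for 30604 rows, several for 2146 and none for 33206. The platform's symbols, which can be old, chose the members. Other genes were named through Entrez IDs with the RefSeq table of GRCm38.p6, which also gave chromosomes, pseudogene lengths and promoters.

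Differences are knockout minus wild type with no further normalization. Called means at least 0.1 or a 2-fold difference. Named members were the 6 highest and 6 lowest parents, the 3 brightest and 3 dimmest, the 4 highest and lowest and 2 brightest pseudogenes, all paralogues, the stalk genes and the 2 ends of each other list. Members and lists were chosen with earlier results of these data known. Other genes named in the text were chosen after their values were seen. The median over parents was checked on permuted differences with an added shift, at a tolerance wider than the median found here. The counts were not checked in this way. Python 3.11.15, pandas 2.3.3, numpy 2.4.6, statsmodels 0.14.6 and matplotlib 3.10.9 were used.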

Additional observations from a re-analysis of the deposited data

How the results depend on the processing

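The 7 summary values (medians and counts of parents, pseudogenes and subunits) were recomputed under 9 alternatives. Of these, 2 (rows on the RefSeq chromosome, repeated value pairs counted once) were chosen after seeing the data. Of these 63 values 28 equalled the original, including all 7 under median centring, which shifts nothing because the median difference of named genes is 0. Of the other 35, 30 stayed within 1.5 times and none changed sign. Against 0.10, the median over large subunit genes came to 0.0656 with quantile normalization and to 0.0619 with loess centring (span 0.3). The number of parents higher by at least 0.1 was 12 of 33 under loess centring and 33 of 70 with rows of several symbols kept, where 59 parents were higher, and the last 2 counts rest on more genes. The cause of the other changes was not tested. Medians over all alternatives ran from 0.08 to 0.12 for parents and from 0.07 to 0.12 for pseudogenes. For 40 named members under quantile normalization and loess centring, 54 of 80 differences stayed within 1.5 times and no difference of at least 0.1 changed sign. No replicate could be left out with 1 array per genotype. No paired analysis was possible because each genotype has 1 array. Dim rows, such as the 18 pseudogenes below the median level, are compressed by RMA and limit what can be read from them.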
